A study of Homo sapiens with 6 samples.

Results

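Thioredoxins, peroxiredoxins and sulfiredoxin form the cytosolic, mitochondrial and secretory thiol system that removes hydrogen peroxide, and 10 of its genes were followed here: TXN, TXNRD1, TXNIP, SRXN1 and PRDX1 to PRDX6. They were the rows of the deposited count table that carried these names, 10 of 58735 listed genes. Of the 10 genes, 9 were among the 15754 that passed the filter on low counts and were tested, and PRDX2 was not. None of the 9 differed between IL17D-overexpressing and control cells at an adjusted p under 0.05, and the estimates of 7 lay between -0.02 and 0.02 on the log2 scale. TXNIP had the largest estimate, with 1.55 times the control level, and it did not pass the test after adjustment.

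RNA was sequenced from A549 cells, a line from a human lung adenocarcinoma, with 3 libraries in each of 2 groups. Control cells carried an empty vector. IL17D-overexpressing cells carried the IL17D coding sequence, which the methods place in a lentiviral vector with the human PGK promoter and an IRES-GFP cassette. Both groups were grown in RPMI1640 medium with fetal bovine serum, and no other treatment is described. Whether the libraries of a group came from separate transductions, separate cultures, a clone or a mixed population is not given in the sources used here, so the p-values measure the spread between these libraries, which may be technical.

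The counts on genes came to 14319398 to 16521021 per library. Levels in CPM below are counts relative to the library total after TMM scaling, and a count of 3 corresponded to 0.182 to 0.210 CPM, which covers counting error only. IL17D itself had 18 to 34 counts per control library and 26772 to 32155 per IL17D library. Of the epithelial markers, KRT8 had a mean of 7648 CPM, KRT18 of 3591 CPM and CDH1 of 43.4 CPM in control cells, while KRT19 had 0.370 CPM and EPCAM 1.05 CPM, so that these markers of the labelled cell type were near the limit of detection. The 4 tested epithelial markers were all below 0 in IL17D against control cells. Of these 1 was called, where 1.58% of all tested genes were. It was CDH1, with 40.9, 43.1 and 46.2 CPM in control and 32.4, 35.6 and 39.0 CPM in IL17D replicates. The log2 fold change of CDH1 was -0.28 (adjusted p = 0.031). Its call was lost by DESeq2 (adjusted p = 0.0659) and without control replicate 2 (0.0765), control replicate 3 (0.135), IL17D replicate 1 (0.269) or IL17D replicate 2 (0.0806), and its part in the results below was not tested. The summed level of 5 leukocyte and macrophage markers was 0.746 to 1.31 CPM in control and 0.730 to 1.46 CPM in IL17D libraries, with PTPRC and CD3E at 0 in all of them, and that of 3 endothelial markers was 0.608 CPM or less in each library. For 5 lung lineage markers the sum was 1.62 to 3.08 CPM in control and 1.03 to 1.58 CPM in IL17D libraries. For 3 fibroblast markers it was 22.4 to 24.3 CPM and 19.3 to 23.8 CPM. Most of that came from COL1A1, with means of 23.3 CPM in control and 21.0 CPM in IL17D-overexpressing cells.

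Peroxiredoxins reduce hydrogen peroxide with a reactive cysteine that is oxidized in each round. In the typical family members, PRDX1 to PRDX4, this cysteine then forms a disulfide with a partner subunit, which thioredoxin (TXN) reduces. Thioredoxin reductase (TXNRD1), a selenoprotein, restores thioredoxin with electrons from NADPH. Sulfiredoxin (SRXN1) rescues peroxiredoxins whose cysteine has been overoxidized, and TXNIP, an arrestin-like protein, binds reduced thioredoxin and also lowers glucose uptake. TXN, TXNRD1, SRXN1 and PRDX1 are known targets of the transcription factor NRF2, which is constitutively active in A549 cells because its inhibitor KEAP1 is inactivated in this line.

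Coding sequence around the reactive cysteine was taken for the enzymes below and compared base by base among PRDX1 to PRDX4 only. The 51 bases around this cysteine are given here from the GENCODE release 29 transcripts (GRCh38). They run 5′ to 3′ on the coding strand, with the codons of active-site cysteines in capitals. For TXN and TXNRD1 both cysteines of the redox-active pair are marked.
TXN: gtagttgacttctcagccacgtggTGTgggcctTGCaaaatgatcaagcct
TXNRD1: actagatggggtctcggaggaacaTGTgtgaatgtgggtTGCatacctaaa
PRDX1: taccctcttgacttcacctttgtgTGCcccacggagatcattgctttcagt
PRDX2: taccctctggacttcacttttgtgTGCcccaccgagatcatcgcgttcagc
PRDX3: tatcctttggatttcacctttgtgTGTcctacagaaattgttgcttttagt
PRDX4: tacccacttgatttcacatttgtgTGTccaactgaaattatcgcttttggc
PRDX5: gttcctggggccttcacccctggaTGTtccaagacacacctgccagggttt
PRDX6: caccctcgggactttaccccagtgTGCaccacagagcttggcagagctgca

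The stretches of TXN (chr9:110251367-110251417, minus strand), PRDX1 (chr1:45515734-45515784, minus strand), PRDX2 (chr19:12800996-12801046, minus strand) and PRDX6 (chr1:173481345-173481395, plus strand) each lay within 1 coding exon. Those of TXNRD1 (chr12:104313308-104315817, plus strand), PRDX3 (chr10:119173836-119174464, minus strand), PRDX4 (chrX:23671633-23675026, plus strand) and PRDX5 (chr11:64319836-64320678, plus strand) ran across a splice junction, and their spans include the intron. The first marked cysteine was codon 32 of TXN, 52 of PRDX1, 51 of PRDX2, 108 of PRDX3, 124 of PRDX4, 100 of PRDX5 and 47 of PRDX6. PRDX1 and PRDX2 were the most alike of the 4 typical peroxiredoxins here, with 45 of 51 bases identical (88.2%), and the longest run without a difference was 14 bases. The other pairs among PRDX1 to PRDX4 were identical at 72.5% to 78.4% of the bases. Over whole transcripts, 31-base stretches that also occur in any other gene, on either strand, were counted. Their share was 0 for TXNIP and PRDX4, 0.754% for TXNRD1, 0.986% for PRDX5, 3.68% for PRDX6 and 8.66% for PRDX3. It was 9.57% for TXN, 17.7% for PRDX2, 31.2% for PRDX1 and 84.9% for SRXN1. The gene that shared most was AC018761.2 for PRDX2 (11.1%), MMACHC for PRDX1 (22.3%) and AL121758.1 for SRXN1 (84.9%). Each has exons that overlap those of the gene it was matched with.

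The 10 genes differed widely in their level per length of transcript. RPKM values, the CPM divided by the gene length in kilobases from the deposited table, averaged 482 ± 22.5 for TXN, 427 ± 10.4 for PRDX1, 278 ± 6.23 for TXNRD1 and 166 ± 12.9 for PRDX5 in control cells (SD, 3 libraries). These 4 genes stood at 98.98% or higher in the ranking of the tested genes on this scale. PRDX6 at 81.1 ± 1.66 RPKM and PRDX3 at 79.4 ± 2.35 RPKM were the only neighbours in this order whose libraries overlapped, in both groups. PRDX4, the peroxiredoxin of the endoplasmic reticulum, followed at 71.0 ± 2.70 RPKM and SRXN1 at 24.4 ± 4.99 RPKM. TXNIP had 0.511 ± 0.0608 RPKM in control and 0.797 ± 0.155 RPKM in IL17D-overexpressing cells, and PRDX2 had 0.0698 ± 0.0938 and 0.0625 ± 0.0359 RPKM. The order of the 10 genes was the same in IL17D-overexpressing cells. The lengths include exon bases that also lie in another gene, 24.9% for PRDX1 and 85.0% for SRXN1. Whether reads there were counted is not given, so the places of PRDX1 and SRXN1 in this order are uncertain.

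**Figure D1:**
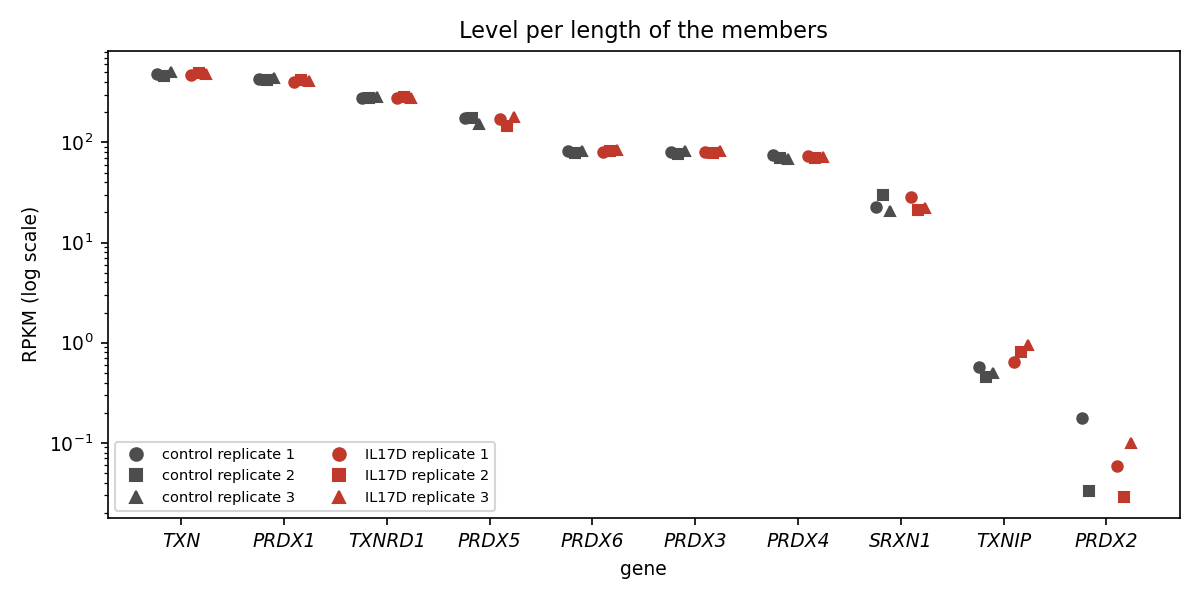
Level per length of the 10 genes in each library, in RPKM on a log scale, with control libraries in grey, IL17D libraries in red and replicate numbers as symbols. TXN, PRDX1 and TXNRD1 lie at 278 to 482 RPKM on average and PRDX2 at about 0.07 RPKM in control. Control replicate 3 had no count for PRDX2 and is not drawn there. Gene lengths include exon bases that PRDX1, PRDX2 and SRXN1 have in common with other genes.

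Together the 10 genes took 0.388% of the counts in control and 0.387% in IL17D-overexpressing cells. Their summed level was 3875, 3823 and 3951 CPM in control replicates 1, 2 and 3, and 3847, 3899 and 3862 CPM in IL17D replicates 1, 2 and 3. The groups overlapped, and TXNRD1 alone contributed 48.1% of the sum in control. In bulk RNA, fewer cells that express a gene and less RNA of it per cell cannot be told apart.

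Of the 9 tested genes, 0 were called by edgeR's quasi-likelihood test at an adjusted p under 0.05, against 1.58% of all tested genes (249 of 15754, of which 106 were higher and 143 lower). Before adjustment, 1 of the 9 had a p under 0.05, against 11.6% of all tested genes, and groups that did not overlap for the same gene, TXNIP, against 15.8%. Also 0 of the 9 were called by DESeq2 or limma voom. The estimates were above 0 for 6 and below 0 for 3. Their median log2 fold change was 0.0036, and that of all tested genes was -0.00044.

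The gene for thioredoxin, TXN (ENSG00000136810, chr9:110243811-110256640, minus strand), had 551, 525 and 576 CPM in control replicates and 542, 560 and 550 CPM in IL17D replicates. The IL17D libraries lay inside the range of the controls. Means were 551 ± 25.6 and 551 ± 9.27 CPM, with a log2 fold change of 0.00022 (SE 0.033, 95% interval -0.067 to 0.068, adjusted p = 0.999). In terms of fold, the interval ran from 0.955 to 1.05 times the control level.

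Its reductase, TXNRD1 (ENSG00000198431, chr12:104215779-104350305, plus strand), had 1843, 1845 and 1916 CPM in control and 1860, 1907 and 1858 CPM in IL17D replicates. The groups overlapped, with 1868 ± 41.8 CPM in control and 1875 ± 27.9 CPM in IL17D-overexpressing cells. The log2 fold change was 0.0057 (SE 0.026, 95% interval -0.047 to 0.058, adjusted p = 0.971), whose interval runs from -3.21% to 4.13% of the control level. With 26513 to 31361 counts per library, TXNRD1 had the narrowest interval of the 9 genes.

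TXNIP (ENSG00000265972, chr1:145992435-145996600, minus strand) had the largest difference of the 9 genes and few reads, with 34, 24 and 29 counts in control and 38, 48 and 49 counts in IL17D replicates. These were 2.09, 1.66 and 1.80 CPM against 2.31, 2.92 and 3.43 CPM, so that each IL17D library lay above each control library. Means were 1.85 ± 0.221 and 2.89 ± 0.563 CPM. The log2 fold change was 0.63 (SE 0.26, 95% interval 0.092 to 1.17), with an unadjusted p of 0.0230 by edgeR's quasi-likelihood test and an adjusted p of 0.325. The difference did not pass the threshold in any of 13 alternatives, in which the log2 fold change was 0.49 to 0.77 and the adjusted p, where one was given, 0.272 to 0.647. DESeq2 gave no adjusted p for TXNIP.

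The tested genes whose log2 CPM followed TXNIP most closely over the 6 libraries were TCEA1P4 (Pearson's r = 0.992), DMAP1 (0.991) and ZNF117 (0.988). These values describe likeness only, since the genes were taken as the highest of 15754 and the libraries include both groups. None of the 3 genes was called. TXNIP relatives and the MondoA-ChREBP factors, which drive TXNIP in response to glucose, counted 7 tested of 8, with 0 called in either direction and a median log2 fold change of 0.0075. ARRDC3, an alpha-arrestin like TXNIP, had 36.7, 37.5 and 36.4 CPM in control and 39.7, 40.2 and 44.4 CPM in IL17D replicates, for a log2 fold change of 0.17 (SE 0.068, adjusted p = 0.304). For MLX, the partner of MondoA, it was 0.11 (adjusted p = 0.446) and for MLXIP, which encodes MondoA, -0.059 (adjusted p = 0.687).

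**Figure D2:**
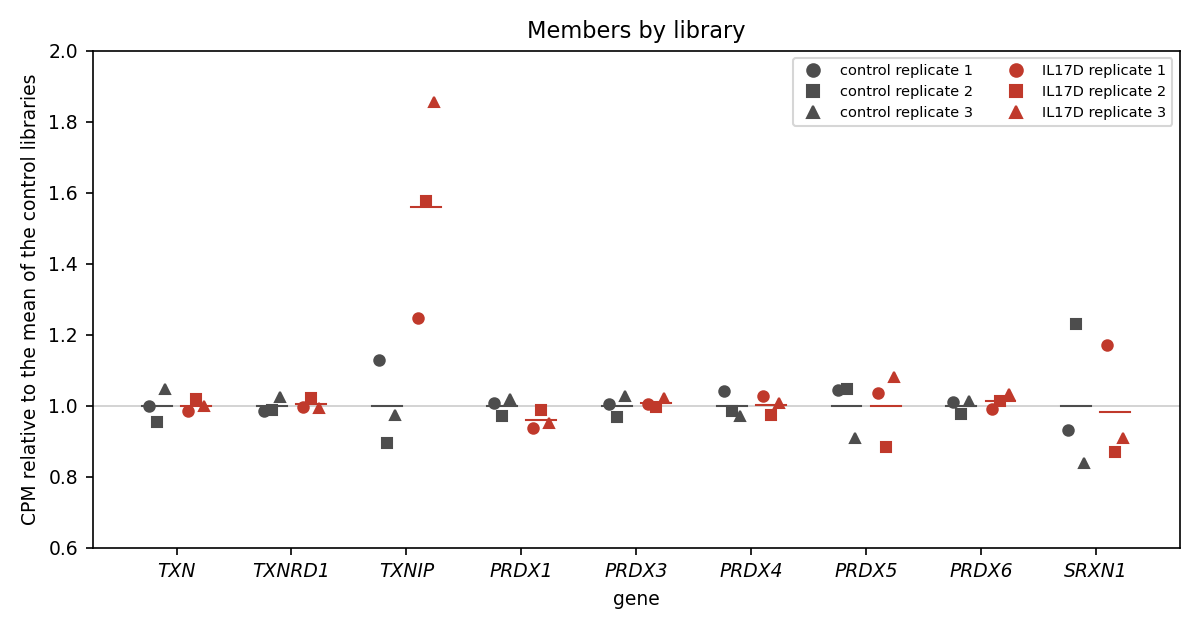
CPM of the 9 tested genes in each library divided by the mean of the control libraries, with symbols for replicate numbers and a bar at each group's mean. TXNIP is the gene whose groups do not overlap, with a log2 fold change of 0.63, and SRXN1 and PRDX5 spread within both groups.

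Among the typical peroxiredoxins, PRDX1 (ENSG00000117450, chr1:45511036-45523047, minus strand), the abundant cytosolic member, had 656, 633 and 663 CPM in control and 610, 643 and 619 CPM in IL17D replicates. Control replicate 2 lay below IL17D replicate 2, and the other control libraries lay above all IL17D libraries. Means were 650 ± 15.8 and 624 ± 17.02 CPM, with a log2 fold change of -0.060 (SE 0.031, 95% interval -0.12 to 0.0027, adjusted p = 0.466). The estimate was negative in all 13 alternatives, from -0.082 to -0.044, with an adjusted p of 0.369 to 0.771. Its unadjusted p was 0.0599 by edgeR's quasi-likelihood test, and it was under 0.05 in 5 of the 13 alternatives. Of the exon bases of PRDX1, 24.9% coincide with exons of MMACHC on the opposite strand, which had 84 to 102 counts per library. The sources used here do not say whether reads were counted by strand.

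PRDX3 (ENSG00000165672, chr10:119167703-119178833, minus strand), the mitochondrial typical peroxiredoxin, had 273, 263 and 278 CPM in control and 272, 270 and 277 CPM in IL17D replicates. The IL17D libraries lay within the control range, and the log2 fold change was 0.011 (SE 0.036, 95% interval -0.062 to 0.083, adjusted p = 0.952). PRDX4 (ENSG00000123131, chrX:23664262-23686399, plus strand), which is secreted into the endoplasmic reticulum and acts in disulfide formation there, had 141, 133 and 131 CPM against 139, 132 and 136 CPM. Its groups overlapped as well, with a log2 fold change of 0.0036 (SE 0.043, 95% interval -0.084 to 0.091, adjusted p = 0.991).

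PRDX6 (ENSG00000117592, chr1:173477266-173488807, plus strand) is the family member that works with a single reactive cysteine and glutathione in place of thioredoxin, and it also has phospholipase activity. It had 194, 187 and 194 CPM in control and 190, 195 and 198 CPM in IL17D replicates. Means of 192 ± 3.94 and 194 ± 3.90 CPM gave a log2 fold change of 0.017 (SE 0.038, 95% interval -0.060 to 0.094, adjusted p = 0.922).

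PRDX5 (ENSG00000126432, chr11:64318088-64321811, plus strand), an atypical peroxiredoxin that forms its disulfide within one subunit, had 155, 155 and 135 CPM in control and 154, 131 and 160 CPM in IL17D replicates. Control replicate 3 and IL17D replicate 2 were low, and the group means of 148 ± 11.5 and 148 ± 15.2 CPM nearly coincided. The log2 fold change was -0.0012 (SE 0.055, 95% interval -0.11 to 0.11, adjusted p = 0.997). Its spread within groups (coefficient of variation 9.10%) was above that of 99.2% of 2579 genes of similar level. Their median was 3.52%, while counting alone would give 2.08% for PRDX5. The fit draws each gene's variance toward that of other genes, so the interval is likely too narrow for this spread. PRDX5 transcripts had 60.8% GC, more than 87.1% of tested genes. The 10% of tested genes with the highest GC content had median deviations, on the log2 scale, of -0.053 in control replicate 3 and -0.028 in IL17D replicate 2, the lowest values among the 6 libraries, where PRDX5 deviated by -0.13 and -0.17. In control replicates 1 and 2 and IL17D replicate 1 these medians were 0.035, 0.024 and 0.035. There PRDX5 deviated by 0.064, 0.069 and 0.056. In IL17D replicate 3 the median was -0.00022, and PRDX5 had its largest positive deviation, 0.12. The part of GC content in the spread of PRDX5 was not tested.

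SRXN1 (ENSG00000271303, chr20:646615-653370, minus strand), which encodes sulfiredoxin, was the most variable of the well-expressed members. It had 999, 1172 and 888 counts in control and 1269, 943 and 854 counts in IL17D replicates, or 61.5, 81.0 and 55.2 CPM against 77.1, 57.4 and 59.8 CPM. One library of each group stood above the rest, control replicate 2 and IL17D replicate 1, and the groups overlapped throughout. Means were 65.9 ± 13.5 CPM in control and 64.8 ± 10.8 CPM in IL17D-overexpressing cells. The log2 fold change was -0.018 (SE 0.090, 95% interval -0.20 to 0.17, adjusted p = 0.975), or -13.04% to 12.1%. As for PRDX5, the fit draws the variance toward that of other genes, so this interval is likely too narrow for the spread of SRXN1. Without control replicate 2 the log2 fold change was 0.15 (adjusted p = 0.550), and without IL17D replicate 1 it was -0.17.

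The within-group coefficient of variation of SRXN1 was 18.7%, against 3.13% from counting alone and a median of 4.55% in 4547 genes of similar level. It was larger than in 99.9% of these genes. The 4 genes with a larger value were KRT87P, BX679664.3, MRPL23 and RPS28P7. Over the 6 libraries, the genes whose log2 CPM was most like that of SRXN1, looked up after its values were seen, were DDRGK1 (r = 0.996), the heat shock cochaperone gene DNAJB1 (0.989) and SPNS2 (0.989). All 3 were highest in the same 2 libraries as SRXN1, with coefficients of variation of 4.69% for DDRGK1, 1.72% for DNAJB1 and 20.6% for SPNS2. Being the highest of 15754 tested genes over 6 libraries, these correlations describe likeness only.

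The annotation limits what the row of SRXN1 counts. Of its 2698 exon bases, 2292 (85.0%) also belong to AL121758.1 (ENSG00000270299, chr20:646626-675800), a gene on the same strand, and 406 belong to SRXN1 alone. AL121758.1 itself was listed with 14 to 30 counts per library. Reads in the common exons cannot be assigned to one of these genes by position, and how the counting treated them is not given in the sources used here. Of 440 protein-coding genes with at least 95% of the exon bases in another gene, 98.9% had fewer than 60 counts in total. Of 21 with that share on the opposite strand 100% did, against 41.8% of 11097 without such overlap. Whether reads in common exons of SRXN1 or PRDX1 were left out was not tested.

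PRDX2 (ENSG00000167815, chr19:12796820-12801859, minus strand), the typical peroxiredoxin best known from red blood cells and present in most tissues, was listed with 6, 1 and 0 counts in control and 2, 1 and 3 counts in IL17D replicates. The totals of 7 and 6 counts gave a ratio of 0.851 after scaling, with an exact 95% interval of 0.236 to 2.96 that covers counting error only. PRDX1 had 8827 to 10661 counts per library. It shared 88.2% of the 51 bases shown above with PRDX2, with no identical run longer than 14 bases. Whether reads of PRDX2 were counted for PRDX1 was not tested.

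The position and sequence of PRDX2 were examined because so few reads were assigned to it. The antisense gene AC018761.2 overlaps 296 of its 2093 exon bases (14.1%), at both ends, and had 0 counts in all libraries, while 1797 bases were in no other gene. The rows of 4 PRDX2 pseudogenes held 17 counts in all. Of 11097 protein-coding genes with no exon base in another gene, 41.8% had fewer than 60 counts in total, and of 440 with at least 95% of the exon bases in another gene 98.9% did. Whether the cells lacked PRDX2 RNA or reads of it were lost in alignment or counting was not tested. The 17 listed pseudogene rows of the 10 genes together held 135 counts, which equals 0.0371% of the counts of the genes themselves.

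**Figure D3:**
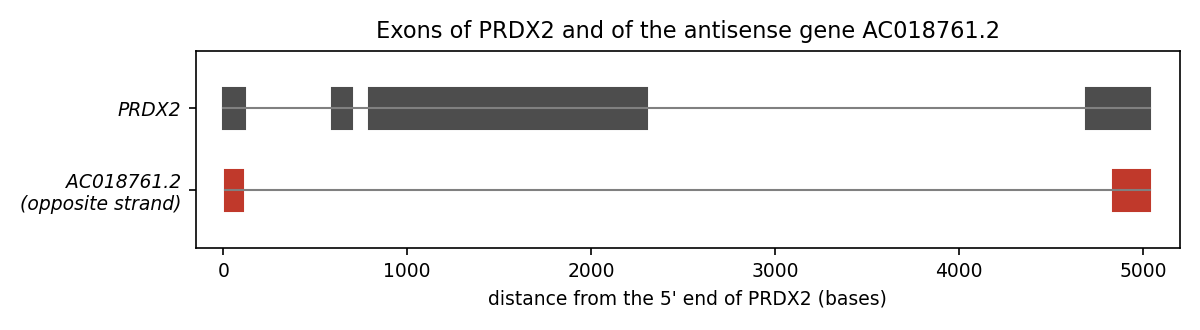
Exons of PRDX2 and of the antisense gene AC018761.2 (boxes), drawn to scale in bases from the 5′ end of PRDX2. The exons of AC018761.2 cover 296 of 2093 exon bases of PRDX2, at the ends of the gene.

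Promoters of the genes were searched for the core of the antioxidant response element to which NRF2 binds, written TGACNNNGC on either strand. RefSeq windows from 250 bases before to 50 bases after the start (GRCh38.p14) were matched for 8 of the 10 genes, 11 windows in all. PRDX1 and PRDX6 had no window and were not searched. Both TXNRD1 windows held the core and the other 9 windows did not, and of all 35116 windows 13.3% held it. The first TXNRD1 window held 2 copies and is not shown, and the second held 1. The stretch of the second TXNRD1 window is shown because TXNRD1 had the highest CPM of the 10 genes (chr12:104286905-104286963, plus strand), with the core in capitals on the reverse strand, 102 bases before that start.
TXNRD1 promoter: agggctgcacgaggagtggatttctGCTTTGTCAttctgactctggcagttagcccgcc

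A match, or the lack of one, describes letters in these windows only.

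Of 28 other genes of the thioredoxin system, 23 were tested and 0 were called in either direction, with 16 above and 7 below 0 and a median log2 fold change of 0.038. GLRX, a cytosolic glutaredoxin, had the smallest p, with 34.5, 39.3 and 34.1 CPM in control and 31.5, 33.3 and 31.3 CPM in IL17D replicates. Its groups did not overlap, as in 15.8% of all tested genes, and its log2 fold change was -0.16 (SE 0.074, adjusted p = 0.372). For GLRX3, which acts in iron-sulfur protein assembly, the log2 fold change was 0.074 (adjusted p = 0.605). The thioredoxin-like membrane proteins TMX1 and TMX2 had the highest levels, with 131 ± 6.62 and 118 ± 4.26 CPM in control and 136 ± 2.82 and 122 ± 1.17 CPM in IL17D-overexpressing cells.

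The machinery that inserts selenocysteine, on which TXNRD1 activity depends, counted 6 tested genes, 0 called and a median log2 fold change of -0.076. SEPHS2, which makes the selenium donor, had 101 ± 1.44 CPM in control and 95.9 ± 1.62 CPM in IL17D-overexpressing cells (log2 fold change -0.080, adjusted p = 0.533). SECISBP2, which binds the selenocysteine insertion element, had -0.11 on the same scale (adjusted p = 0.536), and SARS, the seryl-tRNA synthetase gene, -0.013 (adjusted p = 0.961).

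Of 13 clients and partners of thioredoxin, 2 rose and 0 fell, where 1.58% of all tested genes were called. Estimates lay above 0 for 5 and below 0 for 8 of them, with a median log2 fold change of -0.023. RRM2, the small subunit of ribonucleotide reductase, whose large subunit is reduced by thioredoxin, had 149, 154 and 163 CPM in control and 178, 188 and 179 CPM in IL17D replicates. RRM2 rose by a log2 fold change of 0.23 (SE 0.041, adjusted p = 0.00099), and it passed the threshold in every alternative. RRM1, which encodes the large subunit, was looked up after its values were seen. It had 190 ± 8.32 CPM in control and 187 ± 7.84 CPM in IL17D-overexpressing cells (log2 fold change -0.023, adjusted p = 0.900).

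Of the other enzymes that remove hydrogen peroxide or superoxide, 8 of 10 were tested, with 0 higher, 1 lower and a median log2 fold change of -0.0046. The gene called was GPX2, a glutathione peroxidase, with 400, 398 and 415 CPM in control and 351, 347 and 348 CPM in IL17D replicates. It fell by 0.21 on the log2 scale (SE 0.033, adjusted p = 7.5e-05). PRDX6, the peroxiredoxin that uses glutathione, had 0.017.

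The list of NRF2 with its regulators and its other targets served as a comparison, since TXN, TXNRD1, SRXN1 and PRDX1 are NRF2 targets too. All 32 genes were tested, 1 rose and 9 fell, 27 lay below 0, and the median log2 fold change was -0.099. Among all 15754 tested genes, 106 rose and 143 fell, together 1.58%. The summed level was 23135 to 23664 CPM in control and 21219 to 21434 CPM in IL17D libraries, which did not overlap. Among the NRF2 targets of the thioredoxin system, TXN, TXNRD1, SRXN1 and PRDX1, 0 of 4 were called, with estimates of 0.00022, 0.0057, -0.018 and -0.060. The difference between the thioredoxin genes and the list was not tested.

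TKT, an enzyme of the pentose phosphate pathway, had 2129, 2043 and 2020 CPM in control and 1899, 1870 and 1910 CPM in IL17D replicates, and it fell by 0.12 on the log2 scale (adjusted p = 0.0049). The aldo-keto reductase genes AKR1C1, AKR1C2, AKR1C3 and AKR1B10 fell by 0.30, 0.29, 0.27 and 0.23, and the transporter gene ABCC3 fell by 0.25. The AKR1C genes are close paralogs, among which the counting could split reads, so their separate values are uncertain.

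The remaining calls of this list had larger adjusted p-values. UGDH, which makes UDP-glucuronate, fell by 0.13 (adjusted p = 0.027), and FTL, the ferritin light chain gene, fell by 0.11 (adjusted p = 0.016). The call of FTL was lost without control replicate 3 (adjusted p = 0.0965), IL17D replicate 1 (0.200) or IL17D replicate 3 (0.138), and that of UGDH without control replicate 2 (0.113), control replicate 3 (0.118), IL17D replicate 1 (0.202) or IL17D replicate 3 (0.132). With 1 library left out, their log2 fold changes were -0.14 to -0.082 for FTL and -0.16 to -0.10 for UGDH, from fits with fewer samples. MAFK, a partner of NRF2, rose by 0.17 (adjusted p = 0.040) with groups that overlapped. Its adjusted p was 0.0548 on total counts and 0.542 by DESeq2, and it was 0.112, 0.205, 0.129 and 0.343 without control replicate 1, control replicate 3, IL17D replicate 1 and IL17D replicate 3. KEAP1 and NFE2L2, which encodes NRF2, were looked up after their values were seen and had log2 fold changes of -0.00092 (adjusted p = 0.998) and 0.081 (adjusted p = 0.615).

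**Figure D4:**
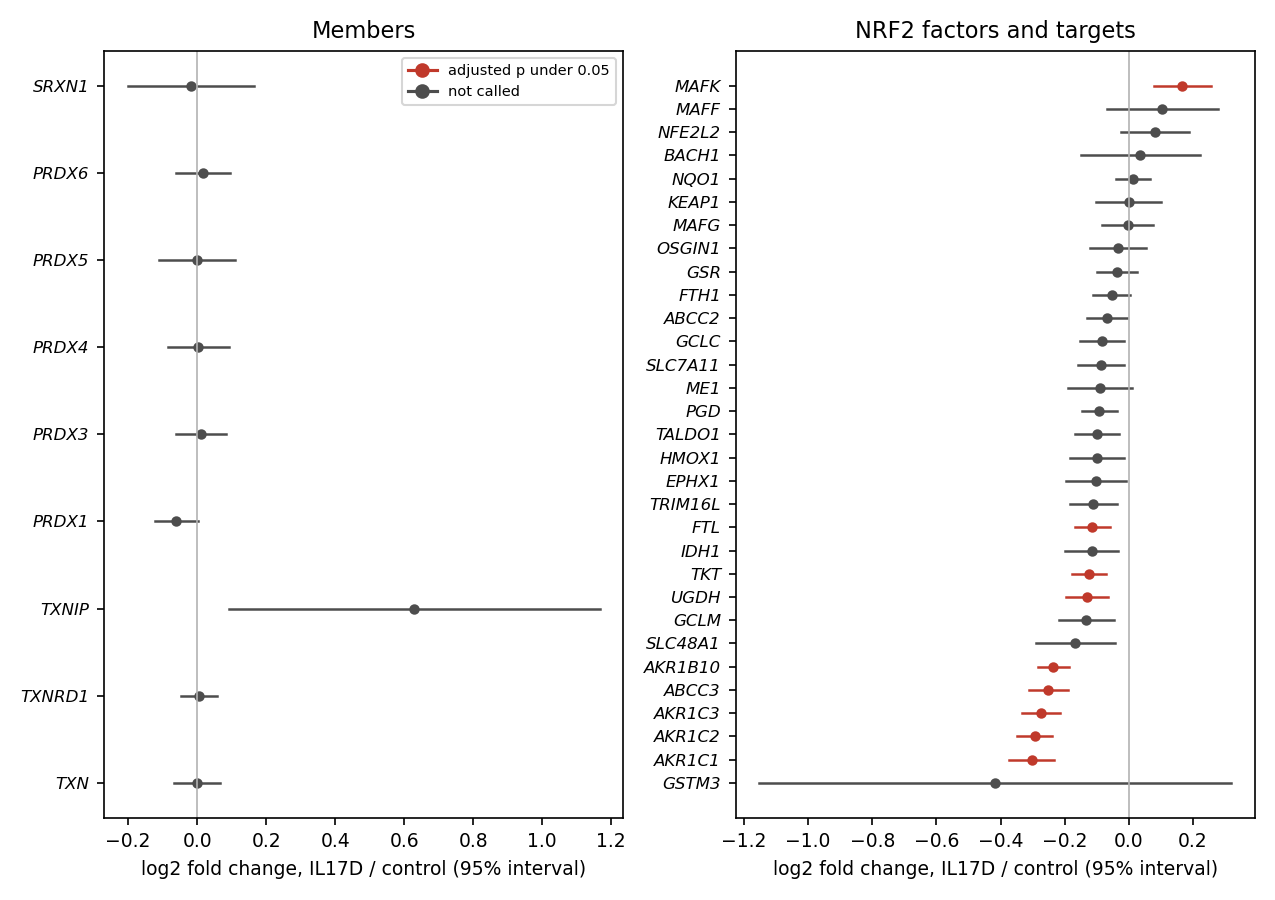
Log2 fold change of IL17D-overexpressing against control cells with its 95% interval for the 9 tested thioredoxin genes (left) and 31 of the 32 NRF2 factors and targets (right), red where the adjusted p was under 0.05. On the left 0 of 9 are called, and TXNIP has the widest interval, 0.092 to 1.17. On the right 1 of the genes drawn is called higher and 8 lower, and the gene of the list that is not drawn was also called lower. Among all tested genes 1.58% were called.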

How the data were processed

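RNA-seq libraries of control and IL17D-overexpressing A549 cells were analysed, 3 in each group by the labels. The authors deposited raw counts of reads per gene without normalization. The submitters' processing notes name Bowtie2 and hg38, and the counting tool and its use of strand are not given in the sources used here. The table's gene identifiers were matched to GENCODE release 29 (GRCh38).

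Genes were filtered with filterByExpr and scaled by TMM in edgeR 4.0.16 (R 4.3.3), and the groups were compared with the two-sided quasi-likelihood test, without covariates. Benjamini-Hochberg adjustment was over all 15754 tested genes. Totals of 14319398 to 16521021 counts set the precision. Errors are the SD of 3 libraries. SE and 95% intervals come from the test, which draws each gene's variance toward that of other genes. The steps were tested on simulated counts in which all genes had the same dispersion. That cannot check the intervals of genes with a wide spread, such as SRXN1 and PRDX5.

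The members and lists were chosen with earlier results of these data known. The rule named IL17D, the 10 genes, every list gene called and, in lists without a call, the 2 genes with the smallest p and the 2 most abundant, with the 3 genes most like the member of smallest p. Alternatives were other scaling and filters, DESeq2 1.42.0, limma 3.58.1 voom, a replicate block, pseudogene counts added to those of a gene, and leaving out each library. Of the list genes called, 2 are not reported here by name.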

Additional observations from a re-analysis of the deposited data

How the results depend on the processing

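None of the 9 tested thioredoxin genes passed an adjusted p under 0.05 in any of the 13 alternatives, and the lowest adjusted p was 0.272, for TXNIP. The sign of estimates near 0 changed. The log2 fold change of TXN was -0.0027 on total counts and -0.0021 with all genes of at least 1 count, and that of PRDX5 was 0.00032 with DESeq2's size factors and 0.0011 with DESeq2. Leaving out 1 library at a time gave -0.033 to 0.035 for TXN, -0.0065 to 0.025 for TXNRD1, -0.17 to 0.15 for SRXN1, -0.012 to 0.030 for PRDX3, -0.017 to 0.037 for PRDX4 and -0.065 to 0.081 for PRDX5. Over all genes, leaving out 1 library gave 69 to 129 genes higher and 76 to 138 lower, where 106 and 143 were called with all libraries. Without IL17D replicate 3 there were 69 higher and 76 lower, without IL17D replicate 1 79 lower, and without control replicate 2 95 lower. Of the list genes, 3 were called higher with all libraries and 1 to 3 with 1 library left out, with 1 each without control replicate 1, IL17D replicate 1 or IL17D replicate 3. These fits had fewer samples, and other causes were not tested.

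The replicate numbers did not pair the libraries: deviations of same-numbered libraries correlated at 0.010, -0.012 and -0.015. With the replicate block, 115 genes were higher and 157 lower, and 0 thioredoxin genes were called. Low counts limited TXNIP and PRDX2, and the part of the common exons in the counts of SRXN1 was not tested.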
